A study of Mus musculus with 14 samples.

Results

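The suppressor of cytokine signalling (SOCS) family was examined in lung group 2 innate lymphoid cells (ILC2s). Its members are Cish and Socs1 to Socs7, and they were matched by symbol in the raw count table and in the table of length-scaled transcript abundances (TPM). All 8 were found among the 53278 genes of both tables, and all 8 passed the filter on low counts in both experiments. SOCS proteins bind phosphorylated receptors or Janus kinases through an SH2 domain, and their SOCS box recruits elongins and a cullin that mark the bound protein for degradation. Cytokines that signal through Janus kinases and STAT factors induce several SOCS genes, and the proteins made from them restrain the same signal. In ILC2s, which respond to cytokines of the common gamma chain and to alarmins, the family is known as a brake on cytokine responses.

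Bulk RNA-seq was available for 14 libraries of cells sorted from whole lung of female mice as live, lineage-, CD90.2+ and CD3-. In the stimulation experiment, ILC2s of B6 mice were kept for 24 h without a stimulus (unstimulated, n = 4) or with 20 ng/mL of IL-33, an alarmin (IL-33 stimulated, n = 4). The deposited design gives each library a mouse of its own, in both experiments, whereas legends of the study speak of pooled animals per sorted sample. The labels describe the unstimulated cells as cultured, whereas the study also calls them ex vivo, so a part of the difference may lie in the culture and cannot be told apart from IL-33 here. In the Blimp-1 experiment, ILC2s of ControlIL7RaCre mice (Control, n = 3) and of Blimp-1IL7RaCre mice (Blimp-1-deficient, n = 3) were all cultured for 72 h with IL-33 and IL-25 at 20 ng/mL each, to which the methods add IL-2. The study's general culture medium also held IL-2, and whether the 24 h cultures did is not stated. Cre was expressed from the Il7r locus, so that in these mice the floxed Prdm1 gene, which encodes the repressor Blimp-1, was also deleted in other innate lymphoid cells and in T, B and NK cells. No group of the Blimp-1 experiment was left without cytokine, and the experiments were counted in separate tables, so levels were not tested between them.

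Libraries of the stimulation experiment held 10470125 to 32849428 counts, and those of the Blimp-1 experiment held 13570188 to 76448945. A pair of libraries stood apart. IL-33 stimulated replicate 3 had the fewest counts of its experiment, and in Control replicate 2, 76.8% of the counts and 93.9% of the TPM fell on 7 loci, which left 3150795 counts elsewhere. These loci were picked as those with over 1% of the counts of Control replicate 2. They held 4.12% of the counts and 7.19% of the TPM in IL-33 stimulated replicate 3. In every other library they held 0.258% to 0.941% of the counts. Every SOCS gene still had at least 73 counts in every library, and the fold changes and calls of the members are given with and without these libraries. Prdm1 had 74.0 to 92.8 normalised counts per 1000000 (CPM) in Control and 11.4 to 14.6 CPM in Blimp-1-deficient ILC2s. All 10 ILC2 markers were detected in every group. Their sum was 8318 to 9060 CPM in unstimulated and 5283 to 7482 CPM in IL-33 stimulated libraries. After IL-33, 8 of the 10 were called lower and 1 higher, where 16.1% of all genes tested were called lower and 16.2% higher. The sum was 5931 to 7217 CPM in Control and 5066 to 5436 CPM in Blimp-1-deficient libraries. There 6 of the 10 had a lower and 4 a higher mean. With all libraries edgeR called 0 of them lower and 0 higher, against 0.306% and 0.45% of all genes. Without Control replicate 2, 5 were called lower and 4 higher, against 5.72% and 8.25% of all genes. The summed level of 10 T cell markers was 191 to 216 CPM in unstimulated and 50.3 to 74.5 CPM in IL-33 stimulated libraries. Trbc2 was the largest part, with means of 117 and 32.2 CPM. Cd3g had means of 35.7 and 12.2 CPM and Trbc1 of 25.5 and 11.5 CPM. Each other marker of that list had a mean of at most 6.83 CPM. In Control and Blimp-1-deficient libraries the T cell sum was 43.1 to 54.8 and 54.0 to 62.6 CPM. For 7 mast cell and basophil markers the sum was 305 to 371 CPM in unstimulated and 130 to 185 CPM in IL-33 stimulated libraries. Kit alone made up most of it, at 298 to 356 and 129 to 185 CPM. Cpa3 had a mean of 10.4 and 0.026 CPM, and the other 5 markers of the list had means below 1 CPM. In the Blimp-1 experiment that sum was 137 to 150.5 CPM in Control and 163 to 211 CPM in Blimp-1-deficient libraries, again mostly Kit. In Control and Blimp-1-deficient libraries 6 ILC3 markers summed to 2.92 to 6.16 and 12.9 to 28.5 CPM, and 10 epithelial or stromal markers, at 445 to 695 CPM without and 252 to 435 CPM with IL-33, reached 3574 CPM in Control replicate 2, against 203 to 664 CPM in the other 5 libraries of that experiment. The part of these cell types in the SOCS results was not tested, and in bulk samples fewer cells of a type and less RNA per cell cannot be told apart. NK cell and ILC1, B cell and myeloid markers summed to at most 10.8, 24.1 and 211 CPM in any library.

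RefSeq promoters on GRCm38.p6 were matched for 4 of the 8 members, Cish, Socs1, Socs3 and Socs4. They were searched on both strands for TTCNNNGAA, the palindrome that STAT factors bind, and for GAAAGTG, a core shared by sites of Blimp-1 and of interferon regulatory factors. The 3 shown here belong to the members with the highest levels per length, from 250 bases before the start to 20 after it, with the matches in capitals and the rest in lower case.
Cish (chr9:107296409-107296678, plus strand): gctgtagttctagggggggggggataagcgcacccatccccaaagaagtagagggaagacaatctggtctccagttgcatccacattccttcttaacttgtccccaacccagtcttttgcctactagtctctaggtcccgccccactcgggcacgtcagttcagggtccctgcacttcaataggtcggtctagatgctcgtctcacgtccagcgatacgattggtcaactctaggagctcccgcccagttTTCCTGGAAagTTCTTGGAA
Socs1 (chr16:10785517-10785786, minus strand): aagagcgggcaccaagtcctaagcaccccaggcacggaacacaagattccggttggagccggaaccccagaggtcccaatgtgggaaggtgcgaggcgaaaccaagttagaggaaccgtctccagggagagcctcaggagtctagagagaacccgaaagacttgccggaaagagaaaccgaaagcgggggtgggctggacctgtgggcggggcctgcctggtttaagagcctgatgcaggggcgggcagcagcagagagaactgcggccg
Socs3 (chr11:117969347-117969616, minus strand): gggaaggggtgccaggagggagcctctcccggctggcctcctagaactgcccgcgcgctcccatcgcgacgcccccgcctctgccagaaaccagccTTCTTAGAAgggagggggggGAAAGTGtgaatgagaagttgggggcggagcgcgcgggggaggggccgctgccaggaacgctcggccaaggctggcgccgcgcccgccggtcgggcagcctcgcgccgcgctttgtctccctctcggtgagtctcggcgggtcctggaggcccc
Positions count from the RefSeq start. For Cish and Socs3 the whole printed window lies within the span of the gene in the GENCODE annotation of GRCm38. Those spans are 107296026 to 107302784 and 117966079 to 117970047, so the annotations place the start differently. In Cish the STAT palindrome occurred as TTCCTGGAA at bases 1 to 9 from the start and as TTCTTGGAA at bases 12 to 20. In Socs3 it occurred as TTCTTAGAA at -154 to -146, and GAAAGTG followed on the plus strand of the gene at -134 to -128. Neither motif was found in the windows of Socs1 and Socs4. Among 32851 promoters of the same length, from 250 bases before to 50 after the start, 8.30% held at least 1 TTCNNNGAA, 0.457% held 2 or more, and 4.81% held GAAAGTG. The motifs do not overlap each other, and a match describes the letters only.

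In unstimulated ILC2s, Socs1 was the most abundant member per length, at 192 ± 26.5 CPM per kilobase (SD, n = 4), with the lengths of the deposited table. Cish followed with 52.0 ± 1.56 and Socs3 with 28.4 ± 9.95 CPM per kilobase (SD, n = 4), and the ranges of these 3 did not overlap. Socs4 and Socs5 overlapped at 14.5 ± 1.19 and 13.0 ± 0.411 CPM per kilobase, above Socs2 at 9.29, Socs7 at 5.63 and Socs6 at 2.90 (n = 4). After IL-33 the order of the first 4 was the same, while Socs5 fell to place 7, where its range overlapped that of Socs2. In Control ILC2s Socs3 stood second, at 57.9 ± 7.17 CPM per kilobase, above Cish at 42.3 ± 2.87 (SD, n = 3), and their ranges did not overlap. In Blimp-1-deficient ILC2s Cish was again second, at 47.5 ± 3.89, above Socs3 at 30.9 ± 4.48 CPM per kilobase (SD, n = 3). Socs6 had the lowest level per length in all 4 groups. The deposited length of Socs1 is 1220 bases, against 2908 exon bases in the GENCODE annotation of GRCm38, with which its level is 80.5 ± 11.1 CPM per kilobase in unstimulated ILC2s (SD, n = 4) and its range in Control, 51.0 to 79.3, overlaps that of Socs3. After IL-33 its range at that length, 39.8 to 94.5, overlaps that of Cish, 44.7 to 70.5. The deposited lengths of Socs5 and Socs6 are also shorter than the annotation, 4392 against 6416 and 8225 against 11349 bases. With the annotated length Socs5 had 8.89 CPM per kilobase in unstimulated ILC2s (8.62 to 9.14), which no longer overlapped Socs4 and lay with its mean below that of Socs2 (9.13 to 9.57).

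**Figure D1:**
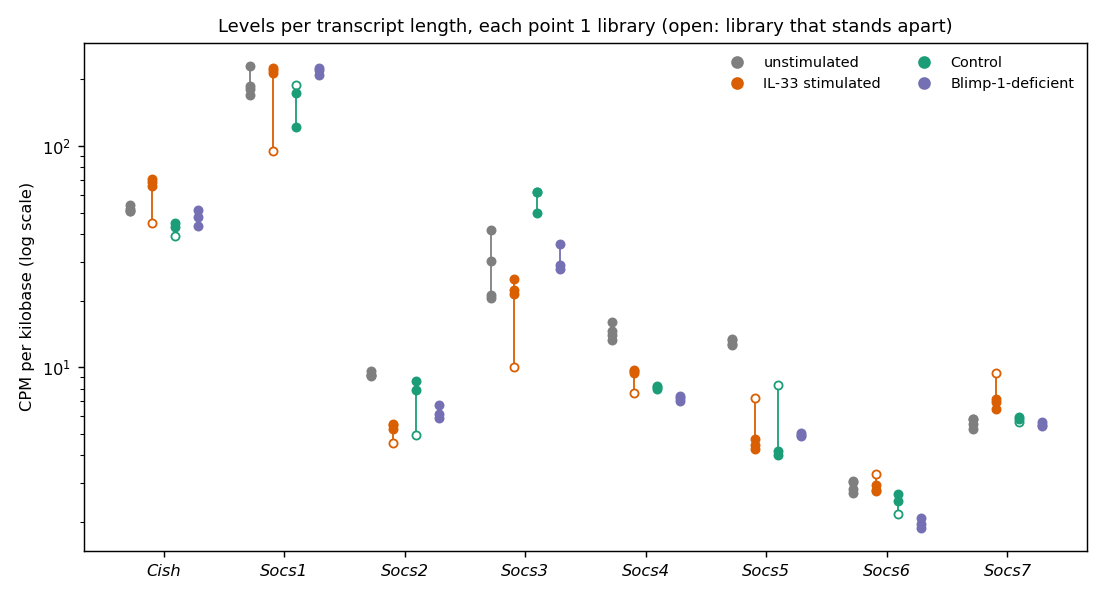
Levels of the 8 SOCS genes per length (vertical axis, CPM per kilobase on a log scale) in each library (points) of the 4 groups (colours), with lines from the lowest to the highest library and open points for IL-33 stimulated replicate 3 and Control replicate 2. Socs1 lay highest in every group at these lengths, and Socs3 lay above Cish in Control ILC2s only among the 4 groups.

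Deposited TPM placed the members likewise in the libraries not dominated by a few loci. In unstimulated ILC2s the TPM of Socs1 ran from 603 to 757, that of Cish from 167 to 192 and that of Socs6 from 9.41 to 10.8. In Blimp-1-deficient ILC2s Socs1 had 862 to 899 TPM, Cish 185 to 201 and Socs3 108 to 140. Control replicate 2 gave the lowest TPM of every member in its group, such as 20.5 for Socs1 and 4.24 for Cish, so CPM was used for the comparisons. The 8 members together had 923 to 996 CPM in unstimulated libraries and 655 to 1009 CPM after IL-33, where replicate 3 was lowest. In Control and Blimp-1-deficient libraries they had 782 to 897 and 803 to 874 CPM. The share of this sum held by Cish and Socs1 together was 54.3% to 56.0% in Control and 66.8% to 68.6% in Blimp-1-deficient libraries, and the groups did not overlap. It was 55.7% to 61.0% in unstimulated and 61.5% to 72.5% in IL-33 stimulated libraries, which did not overlap either.

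The first comparison asked which SOCS transcripts differed after 24 h of IL-33. Of the 8 members, Socs7 was higher and Socs2, Socs4 and Socs5 were lower at an adjusted p below 0.05 in edgeR's quasi-likelihood test, while over all 15466 genes tested 16.2% were higher and 16.1% lower. Socs5 fell most, to 0.396 of its unstimulated level. Groups did not overlap for 4 members, against 37.9% of all genes. Without IL-33 stimulated replicate 3, Cish and Socs7 were higher and Socs2, Socs4 and Socs5 lower, where 27.5% of genes were higher and 29.7% lower. The median log2 fold change of the 8 members was -0.27 with all libraries and -0.17 without replicate 3, and that of all genes was 0.06 and -0.05.

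Cish binds activated cytokine receptors and restrains STAT5, and lies on chromosome 9 (107296026 to 107302784, plus strand, GRCm38). It had 326, 334, 327 and 348 CPM in unstimulated replicates 1 to 4 and 439, 422, 287 and 453 CPM after IL-33. Stimulated replicates 1, 2 and 4 lay above every unstimulated library, and replicate 3 lay below them all. Its log2 fold change was 0.26 (standard error 0.14, adjusted p = 0.173) with all libraries and 0.39 (standard error 0.05, adjusted p = 9.18e-05) without replicate 3. An antisense gene, Gm17041, overlaps 7.46% of its exon bases and 7.93% of its 75-base stretches also occur in Gm17040 or Gm17041, and no source used here says whether counting used strand. Socs1, which blocks the kinase activity of Janus kinases directly, lies on chromosome 16 (10782240 to 10785536, minus strand). It had 281, 221, 227 and 207 CPM without and 268, 262, 116 and 275 CPM with IL-33, so the groups overlapped. Replicate 3 had 0.431 of the mean of the other stimulated libraries. The log2 fold change was -0.02 (95% interval -0.62 to 0.57, adjusted p = 0.952), or 0.20 (95% interval -0.01 to 0.41, adjusted p = 0.0987) without replicate 3.

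Socs3 binds gp130 and related receptors and inhibits the Janus kinases on them, and lies on chromosome 11 (117966079 to 117970047, minus strand). Its unstimulated libraries had 86.9, 61.1, 59.1 and 121 CPM and the stimulated ones 62.0, 72.4, 28.9 and 64.5 CPM. The groups overlapped, and the log2 fold change was -0.52 (95% interval -1.27 to 0.23, adjusted p = 0.243) and -0.31 without replicate 3 (adjusted p = 0.258). Socs2, a regulator of growth hormone signalling, lies on chromosome 10 (95385362 to 95417180, minus strand). It had 87.8, 88.2, 91.2 and 87.1 CPM in unstimulated and 52.3, 50.3, 43.2 and 53.0 CPM in stimulated libraries. All 4 stimulated libraries were lower than all 4 unstimulated ones, and the log2 fold change stood at -0.83 (standard error 0.08, adjusted p = 0.00015), or at -0.77 without replicate 3.

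Socs4 and Socs5 are close relatives linked to turnover of the EGF receptor. Socs4, on chromosome 14 (47276931 to 47296102, plus strand), had 91.4, 100.1, 95.9 and 110.5 CPM in unstimulated and 65.1, 66.1, 52.7 and 66.7 CPM in stimulated libraries. The groups did not overlap, and the log2 fold change was -0.67 (standard error 0.10, adjusted p = 0.00139), or -0.59 (standard error 0.07, adjusted p = 4.07e-05) without replicate 3. Socs5, on chromosome 17 (87107679 to 87137839, plus strand), had 58.6, 55.7, 58.6 and 55.3 CPM in unstimulated and 19.5, 18.7, 31.7 and 20.8 CPM in stimulated libraries. Replicate 3 was the highest of the stimulated libraries but still below every unstimulated one. The log2 fold change was -1.34 (standard error 0.17, adjusted p = 0.000696), and without replicate 3 it was -1.54 (standard error 0.06, adjusted p = 6.15e-08). Socs2, Socs4 and Socs5 were lower under each of 18 alternatives.

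Socs6, which binds receptors such as KIT, lies on chromosome 18 (88665224 to 88927481, minus strand). It had 22.1 to 25.2 CPM in unstimulated and 22.6 to 27.0 CPM in stimulated libraries, with a log2 fold change of 0.02 (95% interval -0.21 to 0.25, adjusted p = 0.90), or -0.04 (95% interval -0.20 to 0.13, adjusted p = 0.693) without replicate 3. Socs7, known to bind insulin receptor substrates, lies on chromosome 11 (97362551 to 97398542, plus strand). It had 38.3, 42.5, 40.4 and 42.5 CPM in unstimulated and 46.8, 50.4, 68.4 and 52.4 CPM in stimulated libraries. Every stimulated library was above every unstimulated one, with the highest value in replicate 3, and the log2 fold change was 0.41 (standard error 0.12, adjusted p = 0.0338) and 0.29 (adjusted p = 0.00353) without it. This call held under 7 of 18 alternatives, with an adjusted p from 0.000222 to 0.714. It was lost without any 1 of unstimulated replicates 1 to 4 or stimulated replicates 2 and 4 (adjusted p = 0.0507 to 0.103). In those fits the log2 fold change of Socs7 was 0.40 to 0.50, while it was 0.25 with library size alone and 0.07 with TPM. Replicate 3 lay below the other stimulated libraries for Cish and Socs1 to Socs4 and above them for Socs5, Socs6 and Socs7.

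**Figure D2:**
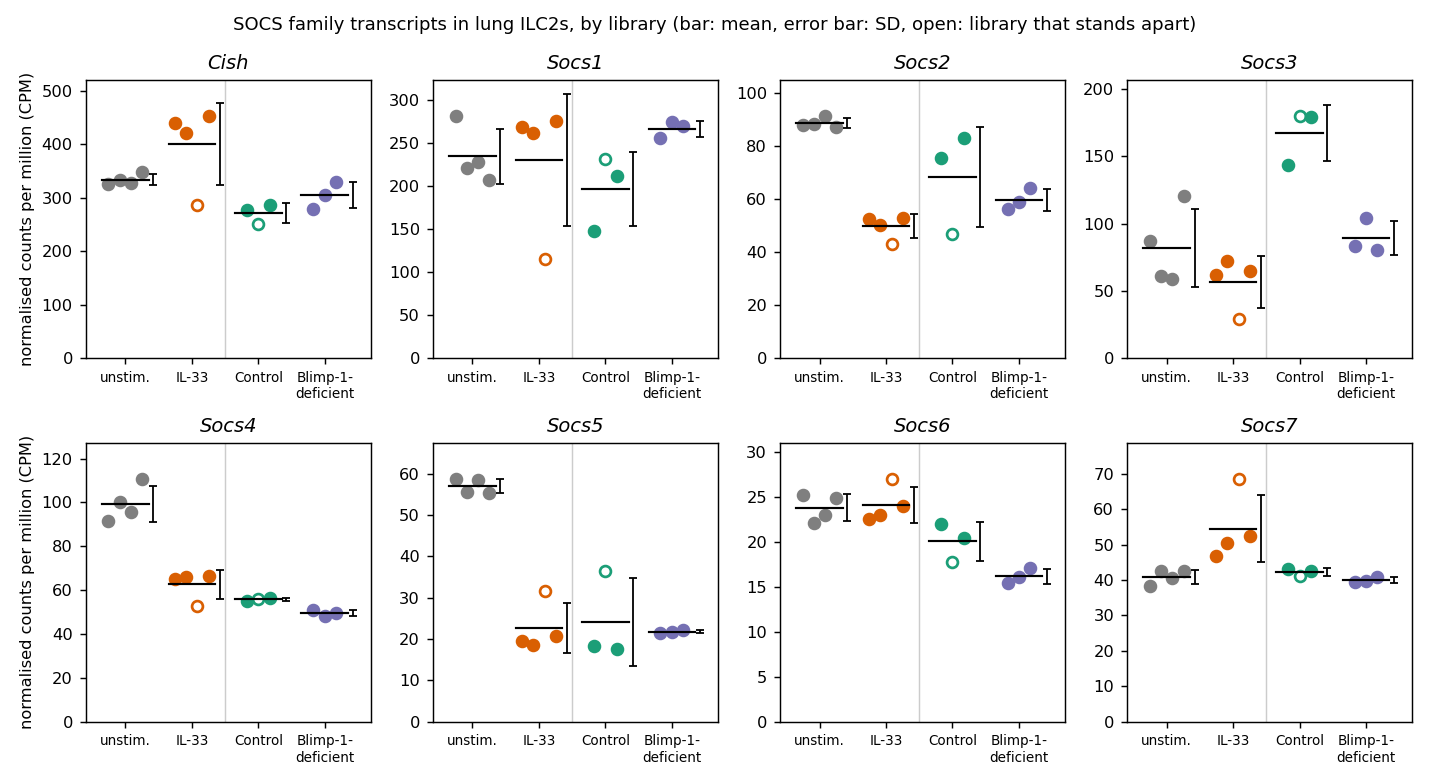
CPM (vertical axis) of each SOCS gene in each library (points) of the 4 groups, with the mean (bar) and SD (error bar) and open points for IL-33 stimulated replicate 3 and Control replicate 2. Socs2, Socs4 and Socs5 separated stimulated from unstimulated libraries, and Socs3 had 143 to 180 CPM in Control against 80.3 to 104 CPM in Blimp-1-deficient libraries.

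The second comparison asked which SOCS transcripts differed when activated ILC2s lacked Blimp-1. With all 6 libraries, 0 of the 8 members passed an adjusted p of 0.05 in edgeR, where 0.45% of 17335 genes were higher and 0.306% lower. At an unadjusted p below 0.05 there were 3 members, Socs1 higher and Socs3 and Socs6 lower, where 11.9% of all genes passed in either direction. DESeq2 called Socs3 lower, and voom with sample weights called Socs1 higher and Socs2, Socs3 and Socs6 lower. Over all genes DESeq2 called 557 higher and 551 lower of 17205, and voom called 1295 higher and 926 lower of 17335. The groups did not overlap for 5 members, against 22.6% of all genes, with Socs1 above and Socs3, Socs4, Socs6 and Socs7 below Control. Without Control replicate 2, Socs1 and Socs5 were higher and Socs2, Socs3 and Socs6 lower, where 8.25% of genes were higher and 5.72% lower. The median log2 fold change of the 8 members was -0.14 with all libraries and -0.12 without Control replicate 2, and that of all genes was -0.02 and 0.01. Scaling by library size alone moved the median of all genes to 0.45 and turned Socs2 and Socs4 to Socs7 above 0, all but Socs5 to values below that median. TPM moved the median to 1.28 and turned Socs2 to Socs7 above 0.

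Socs3 differed most. It had 143, 180 and 179 CPM in Control replicates 1 to 3 and 83.4, 104 and 80.3 CPM where Blimp-1 was deleted. All Blimp-1-deficient libraries lay below all Control libraries, and the mean was 167 ± 20.7 against 89.3 ± 12.9 CPM (SD, n = 3 each). The log2 fold change was -0.91 (standard error 0.15, adjusted p = 0.0561) with all libraries and -0.84 (standard error 0.13, adjusted p = 0.00839) without Control replicate 2. Over 16 alternatives it passed the threshold in 5. Socs1 went the other way, with 148, 231 and 211 CPM in Control and 256, 274 and 270 CPM in Blimp-1-deficient libraries. The groups did not overlap, and the Controls spread more widely than the Blimp-1-deficient libraries. Its log2 fold change was 0.44 (standard error 0.17, adjusted p = 0.388) and 0.58 (standard error 0.13, adjusted p = 0.0323) without Control replicate 2. Cish had 276.5, 251.1 and 286.9 CPM in Control and 280, 306 and 329.9 CPM in Blimp-1-deficient libraries, and the groups overlapped. Its log2 fold change of 0.17 (95% interval -0.10 to 0.44, adjusted p = 0.641) was within the spread between replicates, also without Control replicate 2, at 0.12 (adjusted p = 0.312).

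Socs2 had 75.3, 47.0 and 82.9 CPM in Control and 56.2, 58.7 and 64.1 CPM in Blimp-1-deficient libraries. Control replicate 2 was the lowest of the 6, and the other Controls the highest. Its log2 fold change was -0.21 (standard error 0.20, adjusted p = 0.753) with all libraries and -0.40 (standard error 0.07, adjusted p = 0.0138) without Control replicate 2. Socs5 had 18.3, 36.5 and 17.5 CPM in Control and 21.4, 21.6 and 22.2 CPM in Blimp-1-deficient libraries, and Control replicate 2 had 2.04 times the mean of the other Controls. With it the log2 fold change was -0.11 (standard error 0.29, adjusted p = 0.937), and without it the direction turned, to 0.29 (standard error 0.07, adjusted p = 0.0314). Socs6 had 22.1, 17.8 and 20.5 CPM in Control and 15.5, 16.1 and 17.1 CPM in Blimp-1-deficient libraries. These did not overlap, and the log2 fold change stood at -0.32 (standard error 0.12, adjusted p = 0.35), or at -0.38 (standard error 0.08, adjusted p = 0.0202) without Control replicate 2.

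Socs4 had 55.0 to 56.4 CPM in Control and 48.4 to 51.0 CPM in Blimp-1-deficient libraries. Its log2 fold change was -0.17 (95% interval -0.34 to 0.01, adjusted p = 0.445) with all libraries and -0.15 (adjusted p = 0.114) without Control replicate 2. Socs7 had 41.2 to 43.1 and 39.4 to 40.9 CPM, with a log2 fold change of -0.08 (95% interval -0.26 to 0.10, adjusted p = 0.745). It was -0.09 (adjusted p = 0.321) without Control replicate 2. For Socs4 and Socs7 the groups did not overlap, but the differences did not pass the threshold in either set of libraries. The values of the 2 comparisons stand side by side for Socs2, which was lower after IL-33 (-0.83) and, without Control replicate 2, in Blimp-1-deficient ILC2s (-0.40), and for Socs5, which was lower after IL-33 (-1.34) and, without Control replicate 2, higher in Blimp-1-deficient ILC2s (0.29).

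**Figure D3:**
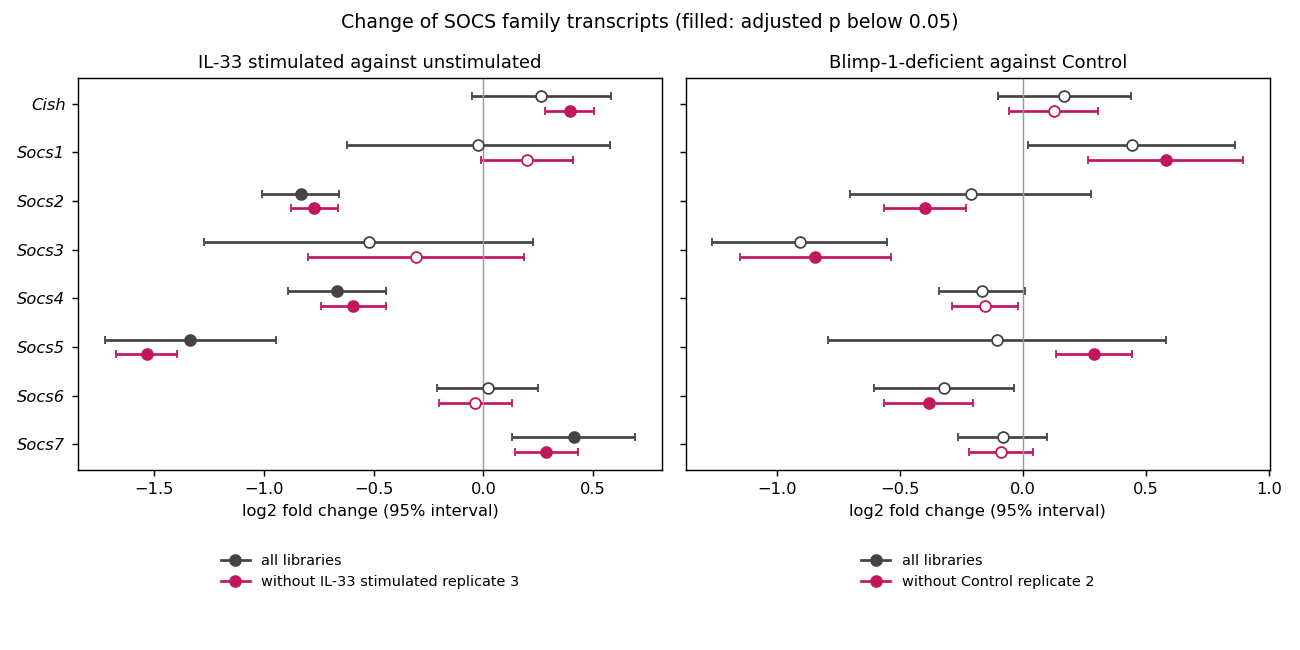
Log2 fold change (horizontal axis) of each SOCS gene with its 95% interval, for IL-33 stimulated against unstimulated (left) and Blimp-1-deficient against Control (right), with all libraries (grey) and without the library that stands apart (red). Filled points have an adjusted p below 0.05, and the interval of Socs5 on the right narrows from -0.79 to 0.58 to 0.13 to 0.44 without Control replicate 2.

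The genes around the family were counted in lists of the signalling pathway, to be read against the 16.2% of all genes called higher and 16.1% called lower after IL-33 with all libraries. After IL-33, 1 of 4 Janus kinases was higher, Jak2, which rose from 187 to 541 CPM (log2 fold change 1.54, standard error 0.10, adjusted p = 3.06e-05). Of 7 STAT factors, none passed the threshold with all libraries (0 of 7 in edgeR, also 0 at an unadjusted p below 0.05, which 43.9% of all genes passed), and 3 were higher without replicate 3, Stat5a, Stat5b and Stat6, by 0.49, 0.29 and 0.24 on the log2 scale, where 27.5% of all genes were called higher. Among 6 genes listed as ubiquitin ligase partners, 4 were higher and 0 lower. Cul2, the elongin Eloc and Cul5, a cullin that SOCS boxes recruit, had log2 fold changes of 0.76, 0.63 and 0.58. Rnf7 rose by 0.43. The median of this list was 0.50, against 0.06 for all genes. Of 13 other inhibitors of the pathway, Pias4, an inhibitor of STAT factors, was higher (0.52), and Pias3, of the same family, and the adaptor Sh2b3 were lower (-0.80 and -0.76).

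Of 20 cytokine genes whose products signal through Janus kinases or related pathways, 16 were tested, and 12 were higher and 2 lower after IL-33, against the same 16.2% and 16.1% of all genes, which also stand beside the next lists. Il9, a growth factor of ILC2s, had 0 to 0.0694 CPM in unstimulated and 3435 to 5313 CPM in stimulated libraries, and was at least 31773-fold higher against the highest level that 3 counts give in an unstimulated library. Il13 and Csf2, which encode IL-13 and GM-CSF, rose from 143 to 14698 and from 34.0 to 2003 CPM. Csf1 fell by 0.99 on the log2 scale, and Il2 was lower as well, with no more than 3 counts in any stimulated library. The list's median was 3.57, with and without the 3 genes at 3 counts or fewer in a group set to their bounds. Of 32 receptor chains 27 were tested, with 3 higher and 9 lower. Il10ra rose by 2.54, Il2ra, the high affinity chain for IL-2, by 0.58 and Il2rg, the common gamma chain, by 0.40 on the log2 scale. Ifngr1, Il6st, which encodes gp130, and Il9r had log2 fold changes of -1.66, -1.17 and -1.10. Of 20 genes known as STAT targets, 10 were higher and 3 lower, with Pim2 (2.54), Junb (1.95) and Myc (1.65) highest and Gadd45g (-1.64), Bcl2 (-0.93) and Mcl1 (-0.33) lowest among those past the threshold. Without replicate 3, 11 were higher and 6 lower, among them Ccnd1 at -1.34. In that set of libraries 7 receptor chains were higher and 12 lower, 12 cytokine genes higher and 4 lower, 2 Janus kinases and 5 ligase partners higher and 0 of either lower, and 1 other inhibitor higher and 3 lower, against 27.5% and 29.7% of all genes.

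In Blimp-1-deficient ILC2s with all 6 libraries, where 0.45% of all genes were called higher and 0.306% lower, these genes of the lists passed the threshold. Among 13 other inhibitors Usp18, which restrains the interferon receptor, rose from 2.27 to 16.5 CPM (log2 fold change 2.95, adjusted p = 0.0116). Lif was the only one of 18 cytokine genes tested to pass, from 137.5 to 1248 CPM (log2 fold change 3.18, adjusted p = 0.00441). Csf2rb, the shared chain of the IL-3, IL-5 and GM-CSF receptors, was the only one of 29 receptor chains, with a log2 fold change of -1.65 (adjusted p = 0.0404). Among 20 STAT targets Pim2 (1.45) and Bcl2 (1.16) were higher, and Prdm1 itself was lower (-2.68). In edgeR 0 Janus kinases, 0 STAT factors and 0 ligase partners passed, and at an unadjusted p below 0.05 there were 1, 5 and 1, the first 2 lists higher and the last lower, against the 11.9% of all genes. The lists were not counted with other tools.

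Without Control replicate 2 more genes passed, in these lists and among all genes, of which 8.25% were called higher and 5.72% lower. Jak2 was higher (0.53) among 4 Janus kinases, and 5 of 7 STAT factors were higher and 0 lower, among them Stat2 at 1.10 and Stat4 at 0.89. The median of the STAT list was 0.38, against 0.01 for all genes. The 6 ligase partners gave 0 calls at an adjusted p of 0.05 in edgeR and 4 lower at an unadjusted p below 0.05, which 31.2% of all genes passed in either direction, with all 6 log2 fold changes below 0 and a median of -0.20. Of the other inhibitors, Usp18 (3.09), Sh2b3 (0.69) and the phosphatase gene Ptpn6 (0.44) were higher, and the phosphatase genes Ptpn2 and Ptprc were lower, both at -0.27. Among cytokine genes 8 of 18 were higher and 0 lower, with Lif, Csf1 and Il9 at 3.14, 1.34 and 1.33. Among receptor chains 11 of 29 were higher, led by Osmr, Il3ra and Ifngr1 at 0.87, 0.79 and 0.62, and 4 lower, with Csf2rb, Il2ra and Il9r at -1.61, -0.69 and -0.55. Among STAT targets 5 were higher and 4 lower, with Pim2, Bcl2 and Gadd45g at 1.31, 1.12 and 0.94 and, besides Prdm1, Bcl3 and Pim1 at -0.40 and -0.39.

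**Figure D4:**
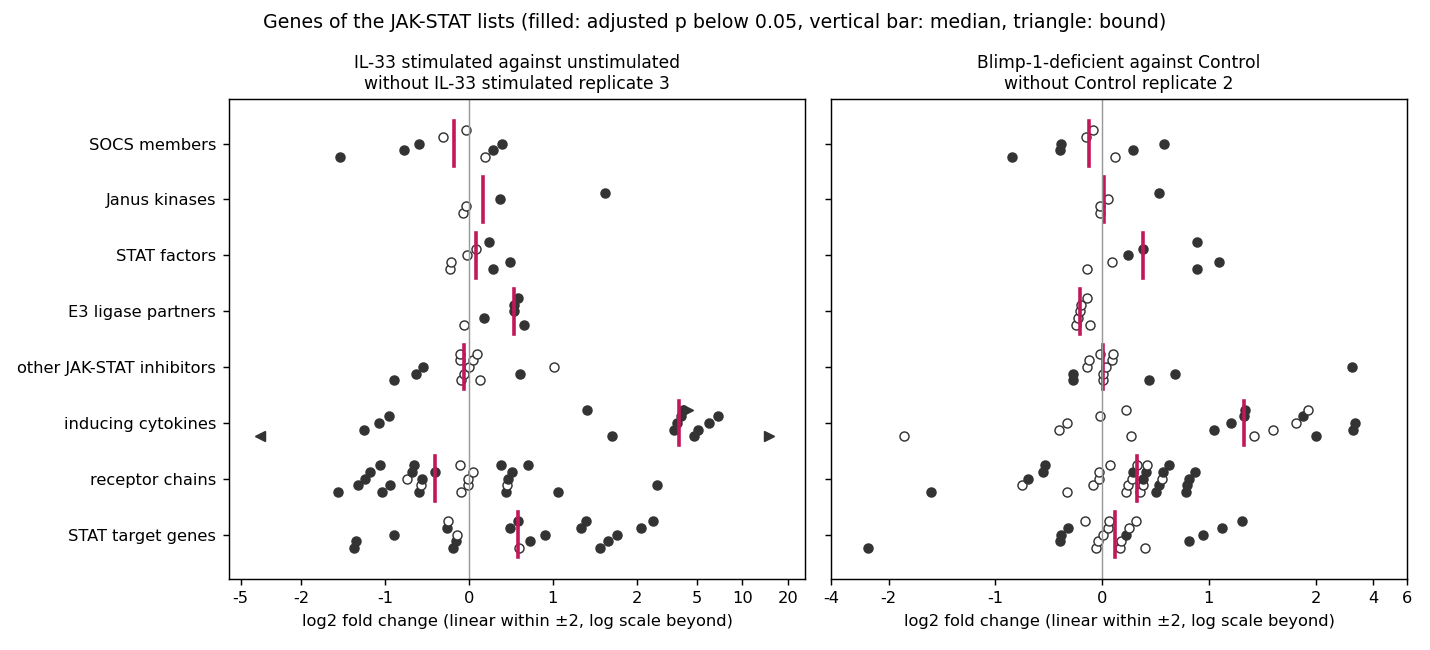
Log2 fold change (horizontal axis, linear within 2 of 0 and on a log scale beyond) of each gene tested (points) in the SOCS family and 7 pathway lists (rows), without the library that stands apart in each experiment. Filled points have an adjusted p below 0.05, red bars are medians and triangles are bounds for genes at 3 counts or fewer in a group, and the cytokine list had the highest median in both panels, at 3.79 and 1.33.

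The genes whose pattern was closest to a member were sought among 9843 genes with a mean of at least 5 CPM in each experiment, by the root-mean-square difference of log2 CPM, centred within each experiment, over all 14 libraries. Closest to Cish were Dnajb12, Tbl2 and Ergic3, at 0.0634, 0.0640 and 0.0714, where the median gene differed from Cish by 0.284. Closest to Socs1 were Emilin1, Fhl3 and B3gnt3, at 0.125, 0.182 and 0.192, against a median of 0.416. For Socs2 these were Acaa2, Mapk14 and Ppp2r5a, at 0.0911, 0.0922 and 0.10, against 0.424. For Socs3 they were Smco4, Nrros and Ttpal, at 0.226, 0.243 and 0.249, against 0.562. Socs3 varied most of the 4, with a root-mean-square departure from its own mean of 0.52, and its closest genes were the least close. Without both libraries that stood apart, Tbl2 stayed among the closest 3 of Cish, Emilin1 of Socs1 and Smco4 of Socs3, and the closest of Socs2 were Tram2, Dpysl2 and Lat.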

How the data were processed

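The 14 RNA-seq libraries of sorted ILC2s fell into 4 groups. By the study's methods, the authors removed adapters with cutadapt, mapped reads to GRCm38 using HISAT2 and used Subread to obtain raw counts. The processing notes deposited with the samples name Bowtie2 in place of HISAT2, and which of them was used was not settled here. The deposited raw counts are not normalized. The authors also deposited TPM, which are scaled by gene length and to the same total in every library. The strand setting of the counting is not given in the sources used here.

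The members, gene lists and tests were chosen with earlier results of these data known. Each experiment was fitted on its own with edgeR 4.0.16 in R 4.3.3 (TMM, filterByExpr, quasi-likelihood test, two-sided, group as the only term). Adjustment followed Benjamini and Hochberg over all genes tested, at a threshold of 0.05. CPM are counts scaled by TMM to 1000000 per library without a prior count. Standard errors are the log2 fold change over the root of the F statistic, and intervals hold 95%. The comparison was also tested on simulated data, and no result given here rests on that test. Beyond the members and Prdm1, named genes are up to 3 of the largest changes per list, direction and comparison past the threshold at a mean of at least 5 CPM, and the 3 genes closest in pattern to Cish, Socs1, Socs2 and Socs3. Il2 and Rnf7 were named after their values were seen, and Kit and Cpa3 were named as mast cell and basophil markers outside the rule. Single T cell and ILC3 markers were also named outside the rule, after their values were seen. Some genes that the rule names are not reported here. Marker lists of 8 cell types were summed.

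Alternatives were DESeq2 1.42.0, its size factors in edgeR, library size alone, no filter, a mean count of at least 50, limma 3.58.1 on log2(TPM + 1) or log2(TPM + 0.1) where TPM averaged 1 or more, voom with sample weights, the replicate number as a block, and each library left out. After seeing the data, DESeq2 was also run without IL-33 stimulated replicate 3 or Control replicate 2. Depth limits precision through counting error, which is all that count floors cover. Figures were drawn with matplotlib 3.10.9.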

Additional observations from a re-analysis of the deposited data

Results flagged for a closer look

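IL-33 stimulated replicate 3 stood far from the other stimulated libraries for 3 of the 8 members, by the gap to its nearest neighbour over the range of the group of 4, compared with Dixon's 95% critical value. Socs1 was lowest there at 116 CPM, with a gap of 0.918 of the range. Socs4 was lowest at 52.7 CPM, with a gap of 0.884. Socs5 was highest at 31.7 CPM, with a gap of 0.833. Of 16 groups of 4 examined, chance alone marks about 1 in 20, and all 3 marks fell on this library, which also had the fewest counts of its experiment. Over all 15466 genes tested the same library stood apart by this measure in 25.8%, and each other stimulated library in 0.207% to 0.44%. The 3 of 8 members are to be read against that share. Whether depth or another property of the library lies behind these values was not tested. Groups of 3 were not examined in this way.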

How the results depend on the processing

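After IL-33, 116 of 144 log2 fold changes of members under an alternative kept their direction and side of the threshold, and in the Blimp-1 experiment 94 of 128 did. The count of members lower after IL-33 was 3 throughout. The count higher was 1, and became 0 with library size alone, with no filter, with log2(TPM + 1), with log2(TPM + 0.1) and with the replicate block, 2 with voom, 2 in DESeq2 without stimulated replicate 3, and 0 to 2 when each library was left out. Over all genes DESeq2 without stimulated replicate 3 called 4582 higher and 4297 lower. In the Blimp-1 experiment the count higher was 0, and became 1 with voom, 2 in DESeq2 without Control replicate 2, and 0 to 2 when each library was left out, with 2 only without Control replicate 2. The count lower was 0, and became 1 in DESeq2, 1 with a mean count of at least 50, 3 with voom, 3 in DESeq2 without Control replicate 2, and 0 to 3 when each library was left out. Over all genes voom called 1295 higher and 926 lower, DESeq2 557 and 551, and DESeq2 without Control replicate 2 called 1932 and 1632.

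After IL-33, Cish turned to -0.09 with both TPM pseudocounts (-0.090 each). Socs1 turned to 0.20 with voom and 0.23 in DESeq2 without stimulated replicate 3, and ranged from -0.12 to 0.20 when each library was left out. Socs6 turned to -0.14 with library size alone, -0.013 with no filter, -0.28 with log2(TPM + 1), -0.31 with log2(TPM + 0.1), -0.013 with voom and -0.0030 in DESeq2 without stimulated replicate 3, and ranged from -0.037 to 0.12 when each library was left out.

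In the Blimp-1 experiment, library size alone turned Socs2, Socs4, Socs5, Socs6 and Socs7 to 0.15, 0.32, 0.61, 0.12 and 0.40. With log2(TPM + 1) Socs2 to Socs7 were 1.146, 0.82, 1.27, 1.37, 0.76 and 1.26, and with log2(TPM + 0.1) they were 1.55, 0.87, 1.57, 1.67, 1.32 and 1.63. These scalings moved the median of all genes to 0.45, 1.28 and 1.69. Socs5 turned to 0.28 with voom and 0.28 in DESeq2 without Control replicate 2, and ranged from -0.29 to 0.29 when each library was left out. The cause of these turns was not tested.

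Calls over all genes ran in the stimulation experiment from 2508 higher and 2484 lower to 4328 and 4666 without stimulated replicate 3, 4556 and 4877 with voom, 1805 and 3691 with library size alone, 1032 and 4655 with log2(TPM + 1), 1027 and 4546 with log2(TPM + 0.1), and 1672 and 1840 with no filter. In the Blimp-1 experiment they ran from 78 and 53 to 1483 and 1027 without Control replicate 2, 1295 and 926 with voom, 557 and 551 in DESeq2, 149 and 107 with a mean count of at least 50, and at most 7 and 2 without any other library. The deposited design names separate mice for all libraries, so replicate numbers do not pair them, and deviations of same-numbered libraries correlated at -0.145 to 0.282 after IL-33 and at -0.134 to 0.122 in the Blimp-1 experiment. With the number as a block, 1802 genes were higher and 1898 lower after IL-33 and Socs7 had an adjusted p of 0.0674, while 0 and 0 were called in the Blimp-1 experiment, where 1380 had an unadjusted p below 0.05.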
